A study of Mus musculus with 12 samples.

Results

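A set of 10 receptor genes for extracellular nucleotides was followed in mesenchyme of the fetal mouse bladder and pelvic urethra. They were the ion channel genes P2rx1, P2rx3, P2rx4, P2rx5 and P2rx7 and the G protein-coupled receptor genes P2ry1, P2ry2, P2ry6, P2ry12 and P2ry14. The 10 genes were chosen by name, out of 55228 genes in the count tables and 16 with a P2X or P2Y symbol. RNA came from untreated wild-type CD-1 female embryos at embryonic day E14.5 or E18.5, with no mutant allele or agent in any group. The 4 groups were bladder mesenchyme and pelvic urethral mesenchyme at each stage, with 3 libraries each, and every library pooled the female embryos of 1 litter after epithelium had been loosened by cold trypsin. The 2 stages came from different litters and separate count tables, so stage, litter and processing cannot be told apart. Cells of several types contribute to each library, and fewer cells of a type cannot be told apart from less RNA per cell.

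Extracellular nucleotides, among them ATP released by nerves or stretched cells, act on these receptors. P2X receptors are channels gated by ATP that let cations, calcium among them, into the cell, and 3 subunits form each channel. P2Y receptors couple to G proteins: those of the P2Y1, P2Y2 and P2Y6 kind mainly to Gq and calcium release, and those of the P2Y12 and P2Y14 kind to Gi. In the bladder, P2X1 carries the purinergic part of nerve-evoked contraction of the detrusor muscle, and P2X3 sits on sensory nerve endings that report filling.

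The promoters of P2rx1 and P2ry2 are shown because these 2 genes passed the test in both compartment comparisons and both stage comparisons. Each sequence runs 5′ to 3′ on the gene's strand from 250 bases before to 50 bases after an annotated start, from RefSeq on GRCm38.p6. Of the 10 genes, 7 had an entry. The P2rx1 window is chr11:72998895-72999194 (+ strand), and the P2ry2 window is the first of its entries, chr7:101012004-101012303 (- strand). Capitals mark E-boxes (CANNTG) and GC boxes (GGGCGG), searched on both strands. No marked motifs overlapped.
P2rx1: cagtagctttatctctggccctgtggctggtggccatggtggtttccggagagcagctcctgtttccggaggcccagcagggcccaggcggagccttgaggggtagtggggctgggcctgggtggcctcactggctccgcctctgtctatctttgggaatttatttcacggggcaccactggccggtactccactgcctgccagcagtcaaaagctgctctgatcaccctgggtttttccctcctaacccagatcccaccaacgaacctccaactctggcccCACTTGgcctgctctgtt
P2ry2: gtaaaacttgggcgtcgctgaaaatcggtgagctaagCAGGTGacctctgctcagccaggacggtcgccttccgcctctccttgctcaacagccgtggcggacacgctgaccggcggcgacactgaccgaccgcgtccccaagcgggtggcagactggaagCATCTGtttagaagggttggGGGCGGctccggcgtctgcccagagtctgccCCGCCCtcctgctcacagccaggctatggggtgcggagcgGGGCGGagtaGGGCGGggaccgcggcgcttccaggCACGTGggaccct
The P2rx1 window held 1 E-box and 0 GC boxes, and the P2ry2 window held 3 E-boxes and 4 GC boxes. Of 32851 mouse promoters of the same length, 72.3% held an E-box and 35.7% a GC box. Neither window held a CArG box, the element bound by serum response factor, which 1.63% of promoters held. These matches describe letters only.

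Total counts per library ranged from 21495169 to 36349777, and 3 counts corresponded to 0.0825 to 0.140 CPM (counts per scaled library total), a limit that covers counting error only. All 10 genes passed the filter on low counts, with 18805 genes tested. P2rx5 and P2ry14 passed it only through their E18.5 libraries. At E14.5 they held 6 to 16 and 2 to 18 counts per library. Levels are CPM, scaled by TMM, and RPKM, the same divided by summed exon length, where genes are compared with each other. Log2 differences are given ± SE, as bladder minus urethra or as E18.5 minus E14.5. The SE is the absolute log2 difference divided by the square root of the F statistic of the test named next. The 95% intervals use this SE with 8 degrees of freedom and need not match the p values exactly. The adjusted p values are from edgeR's quasi-likelihood test with Benjamini-Hochberg adjustment over all genes tested, and adjusted p under 0.05 is called. Summed levels of 8 mesenchymal markers (collagens, vimentin and others) were 8025 to 33190 CPM in the 12 libraries, against 266 to 9875 CPM for 9 epithelial markers, so epithelial transcripts were present in every library. On the first principal component, replicate 1 of both E14.5 groups lay nearest to the E18.5 libraries of its compartment.

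At E14.5, 3 of the 10 receptors were higher in bladder than in urethral mesenchyme (P2rx1, P2rx4, P2ry2) and 1 was lower (P2rx3). Over all genes tested, 12.4% were called higher and 12.5% lower in this comparison. At E18.5, 2 were higher in bladder (P2rx1, P2ry2; 18.52% of all genes) and 3 lower (P2rx3, P2ry12, P2ry14; 16.2% of all genes). The difference between compartments itself changed between the stages for 1 receptor, P2rx1, which moved toward bladder. This change was called toward bladder for 4.64% of all genes and toward urethra for 4.03%, the latter with 0 of the 10 receptors. The median log2 difference over the 10 receptors was 0.32 at E14.5 and -0.02 at E18.5, against -0.00350 and 0.05 over all genes.

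From E14.5 to E18.5, 4 receptors rose in bladder mesenchyme (P2rx1, P2rx5, P2ry2, P2ry14) and 7 rose in urethral mesenchyme (P2rx1, P2rx4, P2rx5, P2rx7, P2ry2, P2ry6, P2ry14). None was called lower in either. P2rx5 and P2ry14, counted among these rises, passed the low-count filter only through the E18.5 libraries, where they are the higher. Of all genes, 23.7% rose and 22% fell in bladder, and 13.6% rose and 10.8% fell in urethra. The median log2 difference over the 10 receptors was 0.59 in bladder and 1.05 in urethra, against -0.02 and -0.06 over all genes. The 5 comparisons share libraries.

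**Figure D1:**
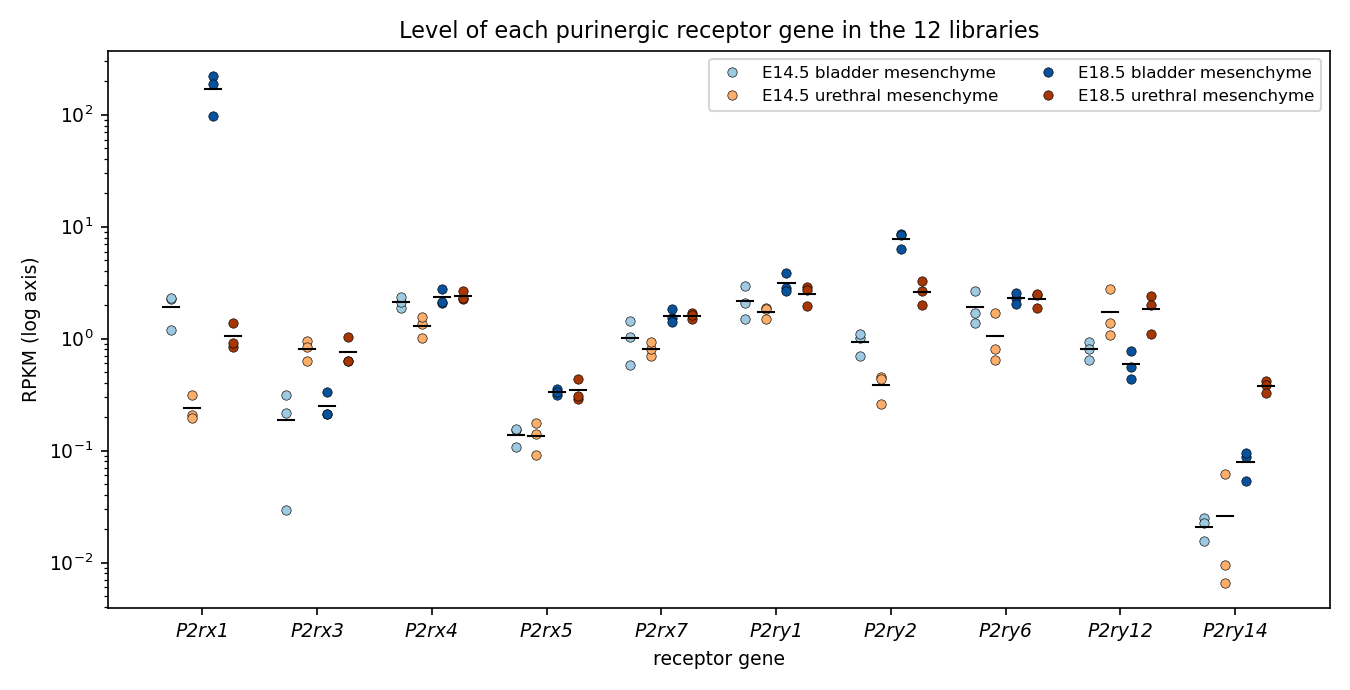
RPKM of each receptor gene (log axis) in each of 12 libraries, 3 per group, with a bar at the group mean. P2rx1 in E18.5 bladder mesenchyme stands far above all other points, and P2ry14 at E14.5 is lowest.

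P2rx1, on chromosome 11 at chr11:72999103-73015200 (GRCm38, + strand), encodes the P2X1 subunit. Its level in E14.5 bladder mesenchyme was 5.90, 3.11 and 6.05 CPM in replicates 1 to 3, and in E14.5 urethral mesenchyme 0.832, 0.550 and 0.514 CPM. At E18.5 it was 581, 497 and 253 CPM in bladder mesenchyme and 2.21, 2.42 and 3.65 CPM in urethral mesenchyme. The E18.5 bladder libraries are all far above the rest, although replicate 3 lies well below its companions, and bladder and urethra do not overlap at either stage. The bladder level rose by 6.47 ± 0.39 on the log2 scale (adjusted p = 2.61e-06), an 88.5-fold difference. The urethral level rose by 2.14 ± 0.43 (adjusted p = 0.00538), 4.40-fold. With limma-voom the urethral difference was 2.11 with adjusted p = 0.0642, which ends that call.

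Smooth muscle markers moved with P2rx1 between the compartments and with stage in bladder, but not with its rise in urethra. All 8 of them were higher in bladder at E18.5 and 7 of 8 at E14.5, and between the stages 7 rose in bladder and 0 in urethra, where 1 fell. Their summed level was 6477 to 8504 CPM in E14.5 bladder, 1707 to 3628 in E14.5 urethra, 22370 to 41540 in E18.5 bladder and 2559 to 2861 in E18.5 urethra, and no smooth muscle marker was at 0 in any group. Divided by that sum, a ratio chosen after the values were seen, P2rx1 was 0.683 ± 0.257 per 1000 CPM of markers in E14.5 bladder (SD, n = 3) and 13.2 ± 2.6 in E18.5 bladder. In urethra the ratio was 0.259 ± 0.054 at E14.5 and 1.02 ± 0.23 at E18.5. By this ratio E18.5 bladder still lay above every other library (lowest 11.3), while E14.5 bladder (highest 0.935) and E18.5 urethra (lowest 0.831) overlapped. P2X1 is also a platelet and mast cell receptor. Summed megakaryocyte and platelet markers were 30.2 to 41.9 CPM in E18.5 bladder and 22.7 to 62.6 CPM in E18.5 urethra, and summed mast cell markers 47.4 to 69.0 and 56.9 to 71.7 CPM. At E14.5 the megakaryocyte and platelet sums were 18.1 to 18.9 CPM in bladder and 3.67 to 9.99 CPM in urethra, without overlap, and the mast cell sums 38.4 to 92.9 and 37.6 to 46.3 CPM. Of 5 mast cell markers, 4 were called higher and 1 lower in bladder than in urethra at E18.5. At E14.5, 2 were called higher and 0 lower. Between the stages 4 rose and 1 fell in bladder, and 4 rose and 0 fell in urethra. The bladder sums thus did not follow most of the mast cell list. The part of platelets and mast cells in the P2rx1 differences was not tested.

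**Figure D2:**
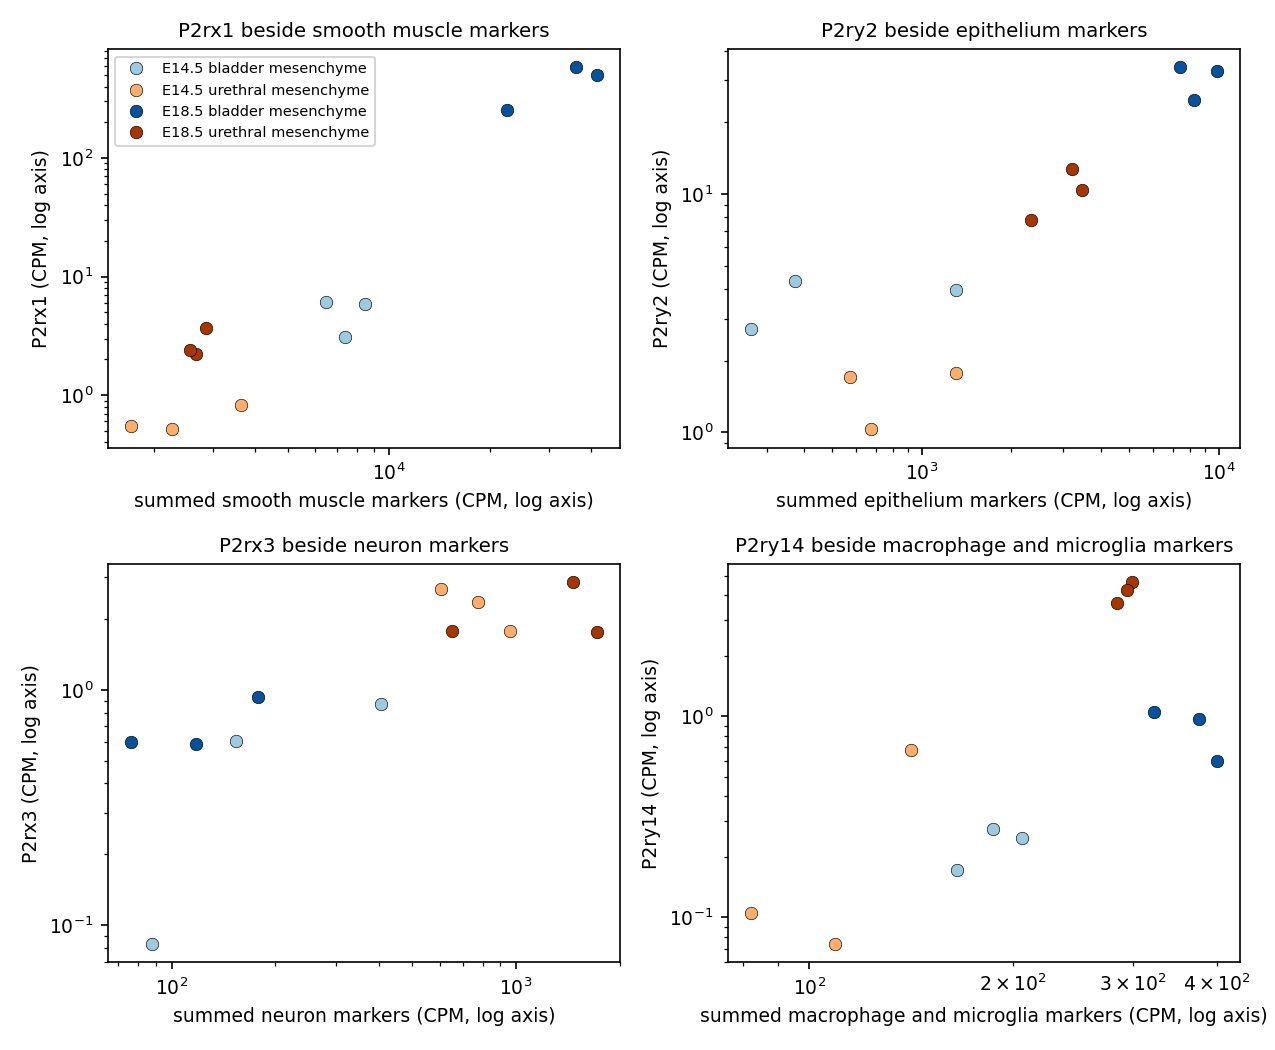
CPM of 4 receptors against the summed CPM of 1 marker list each (both axes log), 1 point per library, coloured by group. P2rx1 lies at 253 to 581 CPM in E18.5 bladder, where the smooth muscle sum is 22370 to 41540 CPM. P2ry14 separates E18.5 urethra (3.65 to 4.64 CPM) from E18.5 bladder (0.598 to 1.06 CPM). The macrophage sums are the higher in E18.5 bladder, but the median log2 difference over that list is -0.41.

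P2rx3, at chr2:84998583-85037462 (- strand), encodes the subunit of sensory nerve channels and was low in every library. In E14.5 bladder it was 0.869, 0.0829 and 0.605 CPM, of which the second corresponds to 2 counts and lies under the 3-count limit. In E14.5 urethra it was 1.78, 2.67 and 2.35 CPM. At E18.5 the values were 0.598, 0.590 and 0.928 CPM in bladder and 1.78, 1.76 and 2.86 CPM in urethra. Every urethral library was above every bladder library, and neither stage comparison was called: the 95% interval of the log2 change was -0.85 to 1.78 in bladder and -1.22 to 1.04 in urethra. Bladder was lower by a log2 difference of -2.13 ± 0.55 at E14.5 (adjusted p = 0.0149) and -1.58 ± 0.53 at E18.5 (adjusted p = 0.0338). Leaving out E14.5 bladder replicate 1 gave -2.73. Both calls depend on the setting: fitting only the E14.5 libraries gave adjusted p = 0.0541, the paired fit with the replicate block gave adjusted p = 0.0540 at E18.5, and 4 of the 6 E18.5 libraries each end the E18.5 call when left out (adjusted p = 0.0526 to 0.127).

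Nerve markers lay in the same direction as P2rx3. Of 8 neuronal markers, 7 were lower in bladder at E14.5 and 8 at E18.5, and their sum was 88.0 to 405 CPM in bladder and 604 to 959 CPM in urethra at E14.5, then 76.3 to 178 and 652 to 1717 CPM at E18.5. Per 1000 CPM of these markers, P2rx3 was 2.34 ± 1.51 in bladder and 3.10 ± 1.28 in urethra at E14.5, and 6.03 ± 1.57 and 1.901 ± 0.850 at E18.5. By this ratio, also chosen after the values were seen, urethra was not the higher group at E18.5. The role of nerve content in the P2rx3 difference was not tested.

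P2rx4 and P2rx7 lie next to each other on chromosome 5, at chr5:122707544-122729738 and chr5:122643911-122691432 (both + strand), 16.1 kb apart. P2X4 and P2X7 are best known from macrophages and microglia, P2X7 as the channel that opens at high ATP. P2rx4 was 13.2, 14.96 and 16.7 CPM in E14.5 bladder and 9.53, 10.9 and 7.05 CPM in E14.5 urethra. At E18.5 it was 14.7, 15.02 and 19.7 CPM in bladder and 15.8, 16.3 and 18.7 CPM in urethra. E14.5 urethra was thus the 1 group below the others, and all other groups overlapped. The bladder difference at E14.5 was 0.71 ± 0.19 (adjusted p = 0.0205), and the urethral rise was 0.89 ± 0.19 (adjusted p = 0.00678). The first of these calls is lost when only the E14.5 libraries are fitted (adjusted p = 0.0833), or without E14.5 bladder replicate 2 (0.0529), bladder replicate 3 (0.0802) or urethral replicate 3 (0.0803). The change of the compartment difference was -0.75, with adjusted p = 0.111 by edgeR and 0.0454 by DESeq2.

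P2rx7 was 8.59, 6.13 and 3.46 CPM in E14.5 bladder and 4.16, 4.87 and 5.58 CPM in E14.5 urethra. It reached 9.19, 8.47 and 11.1 CPM in E18.5 bladder and 8.86, 10.04 and 9.76 CPM in E18.5 urethra. The E18.5 levels of the compartments lay within their spread, and E14.5 bladder replicate 1 was at E18.5 values. The rise was 0.97 ± 0.28 in urethra (adjusted p = 0.0261) and 0.66 in bladder (adjusted p = 0.0727). The bladder rise was called by DESeq2 (0.68, adjusted p = 0.0438) and by limma-voom (0.77, adjusted p = 0.0343). Without E14.5 bladder replicate 1, the bladder rise was 1.009 with adjusted p = 0.0100. The urethral call is lost without any 1 of E14.5 urethral replicates 1 to 3 or E18.5 urethral replicates 2 and 3 (adjusted p = 0.0550 to 0.0758).

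P2rx5, at chr11:73160421-73172685 (+ strand) on the same chromosome as P2rx1, is a P2X subunit of developing muscle and other tissues. It was barely expressed, at 6 to 36 counts per library: 0.366, 0.373 and 0.260 CPM in E14.5 bladder, and 0.340, 0.419 and 0.220 CPM in E14.5 urethra. At E18.5 it was 0.747, 0.858 and 0.800 CPM in bladder and 0.685, 0.738 and 1.05 CPM in urethra. The stages separate and the compartments overlap. The rise was 1.26 ± 0.41 in bladder (adjusted p = 0.0259) and 1.31 ± 0.40 in urethra (adjusted p = 0.0312). With no low-count filter the adjusted p were 0.0987 and 0.110, and leaving out any of 5 libraries (each of E18.5 bladder, E14.5 bladder 2 and 3) ends the bladder call, and any of 5 (each of E18.5 urethra, E14.5 urethra 1 and 3) the urethral one, at adjusted p = 0.0504 to 0.140. Among skeletal muscle markers, 2 of 8 rose in bladder and 8 of 8 in urethra. At E18.5, 6 of the 8 were lower and 1 higher in bladder than in urethra, with a list median of -6.97. Their sum went from 7.18 to 17.7 CPM at E14.5 to 230 to 499 CPM at E18.5 in bladder, and from 9.84 to 124 CPM to 616.5 to 1001 CPM in urethra. Per 1000 CPM of these markers, P2rx5 was 29.4 ± 7.9 in E14.5 bladder and 2.24 ± 1.08 in E18.5 bladder. In urethra it was 21.3 ± 20.0 at E14.5 and 1.08 ± 0.55 at E18.5. The mean of this ratio was thus lower at E18.5, whereas the level was higher. In bladder the median log2 rise over the 8 markers was 0.83, against 3.62 in urethra. The bladder sum thus did not follow most of the skeletal muscle list, and the bladder ratio is limited by this. The part of skeletal muscle content in the P2rx5 rise was not tested.

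P2ry2, at chr7:100996568-101012866 (- strand), encodes a receptor for ATP and UTP that couples to Gq. It was 3.98, 4.31 and 2.72 CPM in E14.5 bladder and 1.78, 1.70 and 1.03 CPM in E14.5 urethra. At E18.5 it was 24.9, 34.1 and 32.8 CPM in bladder and 7.77, 10.5 and 12.7 CPM in urethra. No 2 of the 4 groups overlapped, and their order was E18.5 bladder, E18.5 urethra, E14.5 bladder, E14.5 urethra. Bladder was higher by 1.28 ± 0.28 at E14.5 (adjusted p = 0.00656) and 1.57 ± 0.26 at E18.5 (adjusted p = 0.000521). The rise with stage was 3.06 ± 0.28 in bladder (adjusted p = 1.08e-05) and 2.77 ± 0.28 in urethra (adjusted p = 0.000156), and the change of the compartment difference, 0.29 ± 0.38, was not called (adjusted p = 0.696). Epithelial markers rose alongside: 9 of 9 in bladder and 5 of 9 in urethra, with sums of 266 to 1306 and 574 to 1305 CPM at E14.5, and 7387 to 9875 and 2330 to 3469 CPM at E18.5. Per 1000 CPM of epithelial markers, P2ry2 was 3.65 ± 0.85 in E18.5 bladder and 3.44 ± 0.49 in E18.5 urethra, and 8.26 ± 4.56 and 1.95 ± 0.88 at E14.5. Between compartments, 1 of the 9 epithelial markers was called higher and 2 lower in bladder at E14.5, with a list median of 0.13. At E18.5, 4 were called higher and 0 lower, with a list median of 1.18. The part of epithelial transcripts in the P2ry2 differences was not tested.

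P2ry6, at chr7:100937630-100974649 (- strand), 21.9 kb from P2ry2, encodes a receptor for UDP. It was 4.02, 7.67 and 4.93 CPM in E14.5 bladder and 4.92, 1.86 and 2.31 CPM in E14.5 urethra, and 6.62, 7.40 and 5.92 CPM in E18.5 bladder and 7.05, 7.17 and 5.46 CPM in E18.5 urethra. E14.5 urethra replicate 1 stood with the bladder libraries. Its rise in urethra was 1.12 ± 0.36 (adjusted p = 0.0374), lost when only the urethral libraries are fitted (0.0590) or without E14.5 urethral replicate 2 or 3 or any 1 E18.5 urethral library (0.0608 to 0.140). At E14.5 the bladder difference of 0.88 was not called (adjusted p = 0.0902), and without urethral replicate 1 it was 1.41 with adjusted p = 0.00923.

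P2ry1, at chr3:61002795-61008982 (+ strand), encodes a receptor for ADP. It passed no comparison. Its level was 6.49, 12.6 and 8.995 CPM in E14.5 bladder, 8.06, 6.41 and 7.86 CPM in E14.5 urethra, 16.6, 12.3 and 11.5 CPM in E18.5 bladder and 12.4, 11.6 and 8.42 CPM in E18.5 urethra. The log2 rise was 0.52 in bladder (95% interval -0.07 to 1.12, adjusted p = 0.115) and 0.54 in urethra (-0.06 to 1.14, adjusted p = 0.147), intervals that include both no change and a rise of 1 on the log2 scale. Without E14.5 bladder replicate 2 the bladder rise was 0.80, with adjusted p = 0.0322. An antisense gene, Gm37035, shares 23.1% of the exon bases of P2ry1, and the strand setting of the counts is not given in the sources used here, so part of its counts may belong to that gene.

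P2ry12 and P2ry14 lie on chromosome 3, at chr3:59216272-59262871 and chr3:59113855-59153618 (both - strand), inside the body of Med12l on the opposite strand. P2Y12 is the ADP receptor of platelets and microglia, and P2Y14 is a receptor for UDP-sugars. P2ry12 was 2.38, 1.66 and 2.08 CPM in E14.5 bladder and 7.07, 2.72 and 3.52 CPM in E14.5 urethra, then 1.12, 1.98 and 1.41 CPM in E18.5 bladder and 6.07, 2.79 and 5.08 CPM in E18.5 urethra. Urethra was above bladder without overlap at both stages, with replicate 1 the highest urethral library at each. The bladder difference was -1.64 ± 0.41 at E18.5 (adjusted p = 0.00789) and -1.12 at E14.5, which was not called by edgeR (adjusted p = 0.0616) and was called by DESeq2 (0.0303) or without urethral replicate 2 (0.0331). The stage differences were -0.45 in bladder (adjusted p = 0.404) and 0.07 in urethra (adjusted p = 0.910).

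P2ry14 was 0.274, 0.249 and 0.173 CPM in E14.5 bladder and 0.681, 0.105 and 0.0734 CPM in E14.5 urethra, which is 2 to 18 counts. It was 0.598, 0.965 and 1.06 CPM in E18.5 bladder and 4.64, 4.26 and 3.65 CPM in E18.5 urethra. The E18.5 urethral libraries lay above all others. The rise in urethra was 3.91 ± 0.61 (adjusted p = 0.00118), and it was 5.46 without E14.5 urethral replicate 1, the 1 E14.5 urethral library above 0.2 CPM. The rise in bladder was 1.89 ± 0.65 (adjusted p = 0.0305), a call that ends without E14.5 bladder replicate 2 or 3 or E18.5 bladder replicate 2 or 3 (0.0632 to 0.0994). Bladder was lower by -2.26 ± 0.55 at E18.5 (adjusted p = 0.00640). The change of the compartment difference, -2.01, was not called (adjusted p = 0.193), and without E14.5 urethral replicate 1 it was -3.57 with adjusted p = 0.00614.

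**Figure D3:**
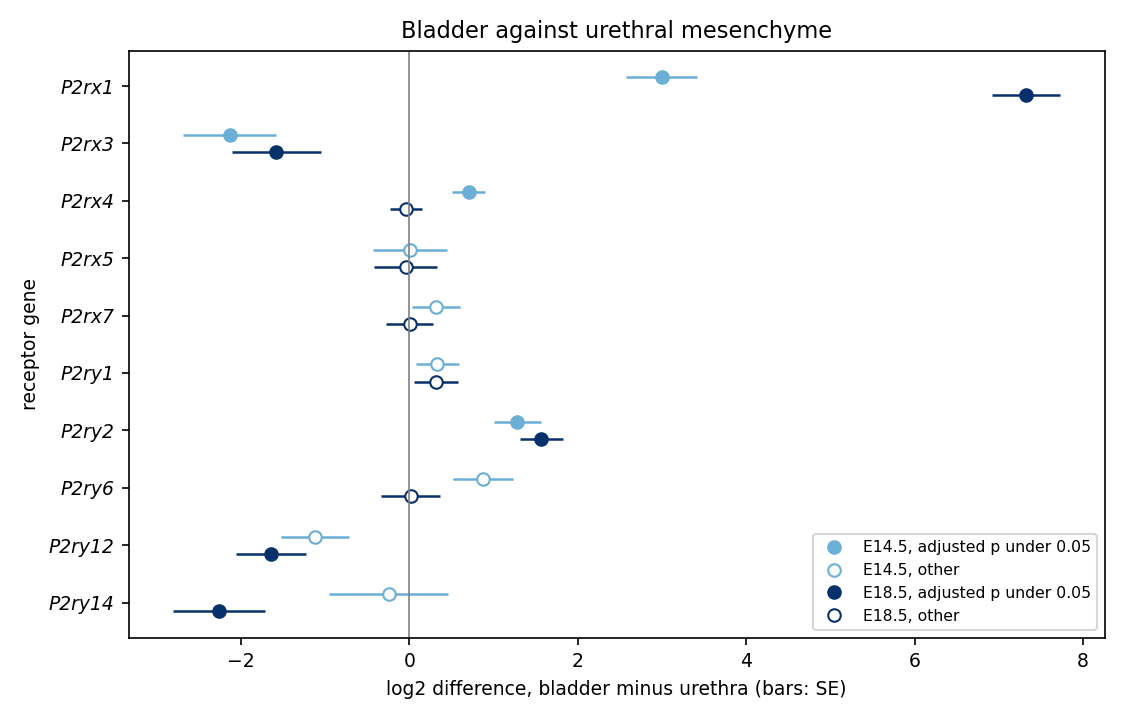
Log2 difference ± SE (bladder minus urethra) of each receptor at E14.5 and E18.5, with filled points called at adjusted p under 0.05. P2rx1 (3.00 and 7.32) lies on the bladder side at both stages, and P2rx3 (-2.13 and -1.58) on the urethral side.

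Markers of macrophages and microglia, cells known to carry P2X4, P2X7, P2Y6, P2Y12 and P2Y14, moved as well. All 10 of them rose in urethra and 5 of 10 rose in bladder between the stages, with sums of 82.2 to 141 CPM in E14.5 urethra and 285 to 299 CPM in E18.5 urethra, against 165 to 206 and 323 to 399 CPM in bladder. No marker of the list was at 0 in any group. At E18.5, 1 of the 10 was called higher and 1 lower in bladder than in urethra, with a list median of -0.41. The higher sum in E18.5 bladder thus did not follow most of the list, which also limits the ratios. Per 1000 CPM of these markers, P2rx4 was 88.1 ± 38.2 in E14.5 urethra and 58.1 ± 6.8 in E18.5 urethra, P2rx7 46.6 ± 15.4 and 32.7 ± 2.6, and P2ry6 26.2 ± 7.5 and 22.4 ± 2.8. The mean of each of these 3 ratios was lower at E18.5, whereas each level was higher. P2ry14 per 1000 CPM was 2.26 ± 2.24 in E14.5 urethra and 14.3 ± 1.4 in E18.5 urethra, and P2ry12 was 15.9 ± 5.7 in E18.5 urethra and 4.15 ± 1.25 in E18.5 bladder, so these 2 differed in the same direction by ratio as by level. These ratios were chosen after the values were seen and were not tested.

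**Figure D4:**
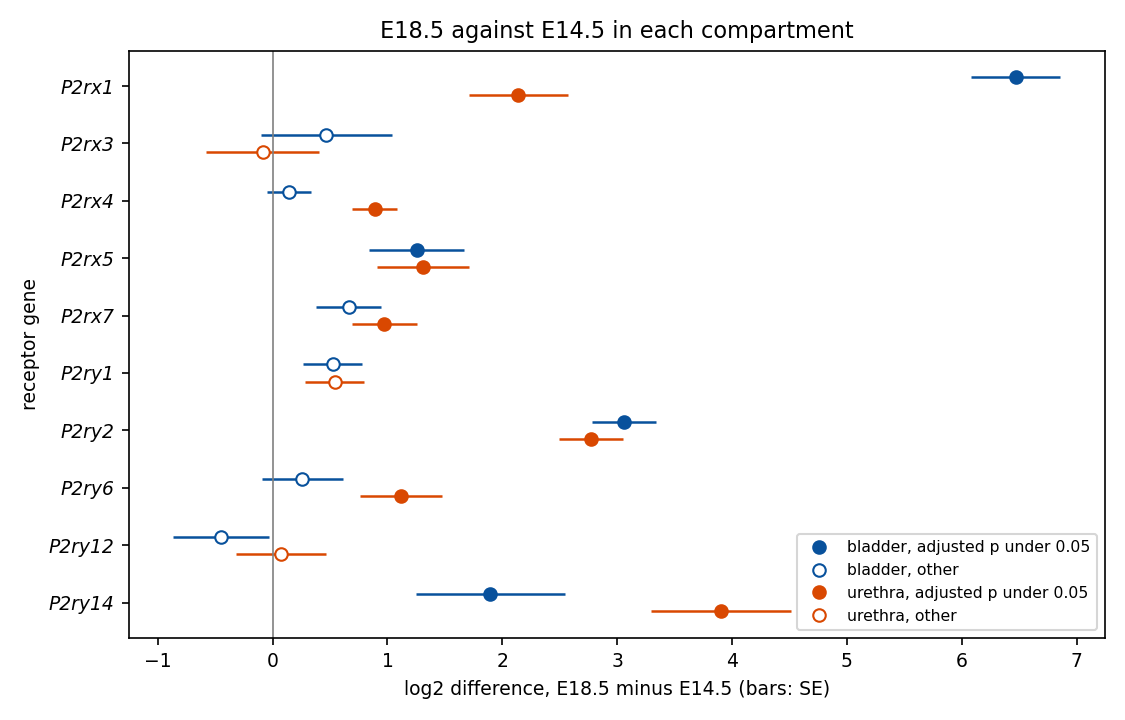
Log2 difference ± SE (E18.5 minus E14.5) of each receptor in bladder and urethra, with filled points called at adjusted p under 0.05. P2rx1 in bladder (6.47) has the largest rise, and P2ry14 in urethra (3.91) the next.

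The make-up of the receptor families differed by group when RPKM values of all 7 P2X genes or 9 P2Y genes were summed. P2rx1 made up 30.7% ± 7.4 of summed P2X RPKM in E14.5 bladder, 4.41% ± 1.14 in E14.5 urethra, 96.0% ± 2.4 in E18.5 bladder and 11.2% ± 1.8 in E18.5 urethra (SD, n = 3 each). Without P2rx1 the sum was 4.24 ± 0.67, 5.30 ± 1.09, 5.95 ± 0.93 and 8.22 ± 0.82 RPKM in the same order, so the remaining 6 P2X genes differed far less than the family total, 6.15, 5.54, 175 and 9.27 RPKM. P2rx2, a neuronal subunit that pairs with P2X3 and is outside the 10 receptors, held 35.7% of E14.5 urethral and 26.6% of E18.5 urethral P2X RPKM, against 7.09% and 0.419% in bladder. Among P2Y genes, P2ry2 held 51.2% ± 5.6 in E18.5 bladder and 23.5% ± 6.5 in E18.5 urethra, and P2ry1 held 30.2% to 31.5% at E14.5 and 20.95% to 22.3% at E18.5 as group means. On the RPKM scale the receptors ranked P2ry1, P2rx4, P2ry6 and P2rx1 first in E14.5 bladder (1.91 to 2.18 RPKM, each overlapping the next), while in E18.5 bladder P2rx1 (169 ± 65 RPKM), P2ry2 (7.79 ± 1.27) and P2ry1 (3.14 ± 0.64) stood apart from each other.

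**Figure D5:**
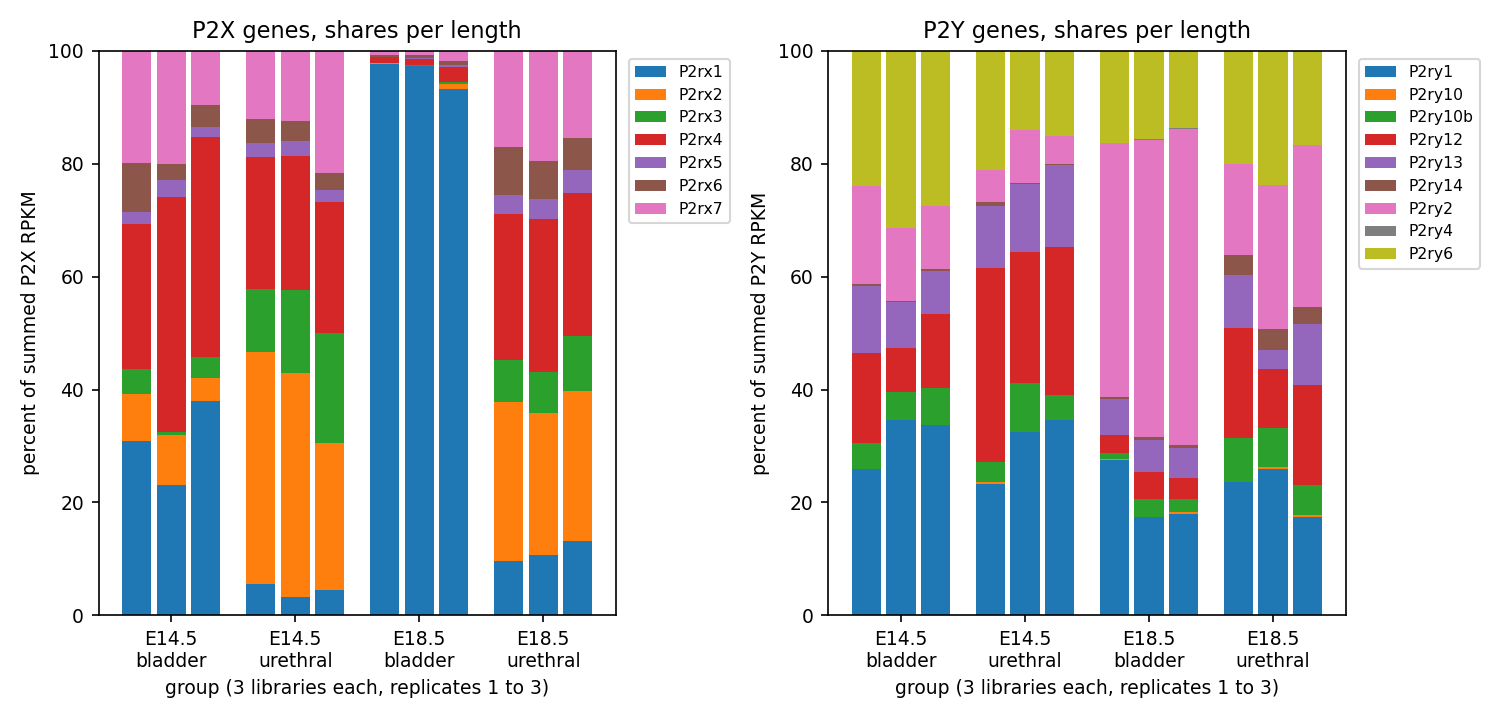
Percent of summed RPKM held by each P2X gene (left) and P2Y gene (right) in every library, replicates 1 to 3 of each group from left to right. P2rx1 fills 93.2% to 97.6% of the P2X bar in E18.5 bladder, and P2ry2 45.0% to 56.0% of the P2Y bar.

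Other genes of the nucleotide pathway were taken from lists drawn up for the pathway. Of the 6 remaining P2X and P2Y genes 4 were tested, and P2rx2 was lower in bladder at both stages (-2.22 ± 0.49, adjusted p = 0.00653, and -2.12 ± 0.47, adjusted p = 0.00380; -2.82 at E18.5 without bladder replicate 3). P2rx6 rose in both compartments (1.36 in bladder, or 2.18 without E14.5 bladder replicate 1, and 1.66 in urethra), and P2ry10b rose in urethra (1.31). The bladder call of P2rx6 is lost when only the bladder libraries are fitted (adjusted p = 0.0573), or without E14.5 bladder replicate 2 or 3 or E18.5 bladder replicate 1 or 2 (0.0538 to 0.104). Its urethral call is lost without E14.5 urethral replicate 3 or E18.5 urethral replicate 1 or 3 (0.0517 to 0.0928). The P2ry10b call is lost in 9 settings (adjusted p = 0.0504 to 0.141): with no low-count filter, without the first replicates of both E14.5 groups, and without any 1 of 7 libraries, which are E14.5 bladder replicate 3, E14.5 urethral replicates 1 and 3, E18.5 bladder replicate 3 and each E18.5 urethral library. The antisense gene Slc7a4 shares 13.9% of the exon bases of P2rx6. P2ry13 was called in no comparison, and P2ry4 and P2ry10 fell under the filter. Of 4 adenosine receptor genes 3 were tested: Adora2b was higher in bladder at both stages (1.22 and 1.73), Adora2a was lower in bladder at E18.5 (-1.35), and Adora1 rose in urethra (2.16, adjusted p = 0.000813) and was lower in bladder at E18.5 (-1.11).

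Genes listed as enzymes that break down extracellular nucleotides were taken by name, and their activity on nucleotides was not measured. Of this list, 8 were tested. Of these, 5 rose in bladder and 4 in urethra, and 0 fell. Over all genes, 23.7% rose and 22% fell in bladder, and 13.6% rose and 10.8% fell in urethra. The list median was 1.80 and 0.75 on the log2 scale, against -0.02 and -0.06 over all genes. Entpd2, an ectonucleotidase that turns ATP to ADP, rose by 3.81 ± 0.45 in bladder and 3.66 ± 0.48 in urethra, and Nt5e, which makes adenosine from AMP, by 2.04 and 1.71. Entpd2 shares 28.8% of its exon bases with Npdc1 on the same strand, so its counts may be split. Enpp2 had the highest mean RPKM of the list over the 12 libraries, with a mean of 199.6 CPM in E18.5 urethra. Its level is no measure of nucleotide breakdown. Enpp2 was lower in bladder at E18.5 (-1.88 ± 0.30, adjusted p = 0.000537). In E18.5 bladder Entpd1 lay above it, at 133 to 195 CPM against 47.8 to 59.6 CPM. Entpd1 was called higher in bladder than in urethra at E18.5, by at least 2-fold. Slc17a9, the vesicular nucleotide transporter, was higher in bladder at both stages (2.85 ± 0.52, adjusted p = 0.00235, and 2.67 ± 0.47, adjusted p = 0.000830), whereas the pannexin genes Panx1 (-0.85 and -0.72) and Panx2 (-1.24 and -2.05) were lower. The Panx2 call at E14.5 is lost when only the E14.5 libraries are fitted (adjusted p = 0.0528), or without E14.5 bladder replicate 2 or 3 or urethral replicate 1 or 3 (0.0658 to 0.109). Of 5 tested genes for adenosine transport and metabolism, Slc29a1, the most abundant, was called in both compartment comparisons (0.51 and 0.67; at E14.5 the call is lost with only those libraries fitted, adjusted p = 0.0655, or without bladder replicate 1 or 2 or urethral replicate 3, 0.0559 to 0.0672), and Adk was higher in bladder at E14.5 (1.41).

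Among all tested genes, those whose log2 CPM across the 12 libraries resembled each receptor most were found by Pearson's r, given as a description since the libraries share stages and compartments. P2rx1 was nearest to Acadl (r = 0.988), Tmem123 (0.987) and Stum (0.984). P2ry2 was nearest to Sema3b (0.993), Stat6 (0.989) and Clec3b (0.989), and P2ry14 to Adora1 (0.976), Fgl2 (0.974) and the leukocyte integrin gene Itgam (0.973). P2ry12 was nearest to Tsc22d1 (0.943), Irx1 (0.936) and Cyp26a1 (0.935). P2ry6 was nearest to Eng (0.956), Lyn (0.954) and Fbln1 (0.947), P2rx4 to Gbp3 (0.929) and Lyl1 (0.909), and P2rx7 to Ppp1r14d (0.942), Lilrb4a (0.941) and Gpr179 (0.938). P2rx3 was nearest to Gspt2 (0.944), Tmem266 (0.935) and Klhl24 (0.933), P2rx5 to Lgals8 (0.979), Vwa7 (0.963) and Ahrr (0.960), and P2ry1 to Ksr1 (0.938), Mia3 (0.922) and Nomo1 (0.919).

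The genes beside P2rx1 were read in the same fit. Atp2a3, 6.06 kb upstream, was higher in bladder at E14.5 (2.82 ± 0.30) and not called at E18.5 (0.56 ± 0.28, adjusted p = 0.151), where 5 settings did call it (adjusted p = 0.0175 to 0.0490): limma-voom, the replicate block, only the E18.5 libraries, and leaving out E14.5 urethral replicate 1 or the first replicates of both E14.5 groups. Camkk1, 3.81 kb downstream, was higher in bladder at E18.5 (1.498 ± 0.254, adjusted p = 0.000647), and its rise in bladder was 1.29 ± 0.25. The difference of P2rx1 at E18.5 was 7.32 ± 0.41.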

How the data were processed

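Per the labels' protocols, libraries were poly(A)-selected, directional and sequenced as pairs. Per the submitters' processing notes, HISAT2 2.2.1, bcl2fastq and SAMtools 1.9 were used with genome build GRCm38. How reads were counted, the strand setting and the annotation are not given in the sources used here. The authors deposited raw, unscaled counts for each gene in separate E14.5 and E18.5 tables that also hold summed exon lengths, per the file headers. Values of 2 outnumbered values of 1 by a factor of 2.06 to 2.51, the pattern of counting each read of a pair, which makes counting limits too narrow. Sequences are from RefSeq.

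Genes were kept by filterByExpr (minimum count 10), scaled by TMM and tested in R 4.3.3 with the quasi-likelihood test of edgeR 4.0.16 (robust option), in 1 model of 4 group means with 8 residual degrees of freedom. Benjamini-Hochberg adjustment ran over 18805 genes within each of 5 comparisons. The members and lists were chosen with earlier results of these data known. All 10 receptors are named. Other genes of a list are named where called with at least a 2-fold difference, at most 4 per list and comparison, plus the most abundant; the text leaves some of these out for length and adds a few below 2-fold, P2rx1's nearest neighbours and marker ratios, chosen after their values were seen. For each receptor the 3 most alike genes were found and are named, except for 1 that is not reported here. The labels do not tie replicate numbers to litters. At E18.5, deviations from the group mean correlated between bladder and urethral libraries of equal number at 0.197, 0.193 and 0.286, all over 0.1, so the numbers were taken to pair them; at E14.5 they gave 0.192, -0.0285 and 0.206, which do not. Results come from the fit without that block. P-values measure the spread between libraries, 1 litter each. The scripts were tested on simulated data. Alternatives were DESeq2 1.42.0, limma-voom (limma 3.58.1), median-ratio size factors, no filter, a stricter filter, the replicate block, only the libraries compared, leaving out each library, and dropping the first replicate of each E14.5 group.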

Additional observations from a re-analysis of the deposited data

Results flagged for a closer look

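In 4 genes the difference between bladder and urethral mesenchyme changed between E14.5 and E18.5 by the test of that change (edgeR's quasi-likelihood test). For P2rx1 the log2 difference grew by 4.33 ± 0.59 toward bladder (adjusted p = 0.00237), from 3.00 to 7.32. For Adora1 it moved by -1.54 (adjusted p = 0.0458), for Adora2a by -1.03 (adjusted p = 0.0343) and for Enpp2 by -1.75 (adjusted p = 0.0239), all toward urethra. Each of these last 3 calls is lost when any 1 of several libraries is left out. The Adora1 call is lost without any 1 of 10 libraries, the exceptions being replicate 1 of both E14.5 groups (adjusted p = 0.0601 to 0.106). The Adora2a call is lost without any 1 of 9 libraries, namely E14.5 bladder replicates 2 and 3, E14.5 urethral replicate 3 and each E18.5 library (0.0509 to 0.0853), with no low-count filter (0.0641) and with the replicate block (0.0535). The Enpp2 call is lost with no low-count filter (0.0718) or without E14.5 bladder replicate 2, E14.5 urethral replicate 3, E18.5 bladder replicate 1 or 3 or E18.5 urethral replicate 1 (0.0534 to 0.0709). An antisense gene, Mybph, shares 20.1% of the exon bases of Adora1, and the strand setting of the counts is not given in the sources used here.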

How the results depend on the processing

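Of 406 values for the 21 called receptor results, 365 kept direction and side of the threshold, 41 lost the call and 0 reversed; the calls of P2rx1 held in all settings except its urethral rise with limma-voom, and those of P2ry2 in all. Called receptors numbered 2 with only the E14.5 libraries fitted (8 receptors tested there). For the change of the compartment difference they numbered 2 with DESeq2, 3 without replicate 1 of both E14.5 groups, and 1 to 2 when single libraries were left out. Leaving out single libraries gave 2 to 5 for the bladder stage comparison and 4 to 7 for the urethral one. The share of all genes called in each of these settings is not given here. A change particular to the receptors thus cannot be told apart from a general change in calls. With the replicate block 4 receptors were called at E14.5, 4 at E18.5 (P2rx3 lost) and 1 for the change; it changed no other receptor call, ended the Adora2a change (adjusted p = 0.0535) and called Atp2a3 at E18.5 (0.0416).

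Reversals were all of values not called. Leaving out single libraries gave, for bladder against urethra at E14.5, -0.20 to 0.24 (P2rx5), -0.0363 to 0.60 (P2rx7) and -0.69 to 1.31 (P2ry14); at E18.5, -0.19 to 0.0364 (P2rx4), -0.17 to 0.17 (P2rx5), -0.11 to 0.0887 (P2rx7) and -0.10 to 0.10 (P2ry6); for its change, -0.29 to 0.16 (P2rx5), -0.59 to 0.0412 (P2rx7) and -0.21 to 0.26 (P2ry1). For the stage in bladder it gave -0.0457 to 1.06 (P2rx3) and -0.00615 to 0.23 (P2rx4), and in urethra -0.36 to 0.0499 (P2rx3) and -0.18 to 0.58 (P2ry12). Without replicate 1 of both E14.5 groups, P2rx5 was -0.0556, P2rx7 -0.13 and P2ry14 1.16 at E14.5, and the change was 0.00662 (P2rx5) and 0.14 (P2rx7). At E18.5, P2rx7 was -0.02075 with DESeq2, -0.02013 with median-ratio size factors, -0.003945 with no filter, -0.05213 with only the libraries compared and -9.65e-06 with the replicate block. P2ry6 was -0.01181, -0.0100 and -0.04115 with DESeq2, median-ratio size factors and only the libraries compared. With limma-voom P2ry14 was 0.40 at E14.5 and the change of P2ry1 0.00510; with the replicate block these were 0.0461 and 0.0264. The cause was not tested. Levels under about 0.14 CPM (P2ry14 and P2rx3 at E14.5) are limited by counting.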
